A study of Arabidopsis thaliana with 15 samples.

Results

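The jasmonate response of Arabidopsis has a MYC branch and an ERF branch, and 10 of its genes were followed here across 5 groups of seedlings. They are 10 of the 32548 genes in the deposited table and were chosen by name for their known place in the pathway. The MYC branch gave 3 genes, the transcription factor gene MYC2 (AT1G32640) and the output genes VSP1 (AT5G24780) and VSP2 (AT5G24770). The ERF branch gave 7, the transcription factor genes ORA59 (AT1G06160) and ERF1 (AT3G23240) and the defensin genes PDF1.1 (AT1G75830), PDF1.2a (AT5G44420), PDF1.2b (AT2G26020), PDF1.2c (AT5G44430) and PDF1.3 (AT2G26010).

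RNA was sequenced from 11-day-old, untreated seedlings of the Col-0 ecotype grown on plates, with 3 libraries in each of 5 groups. The group obe1-2 carried the genotype obe1-/- obe2-/-, mutated in both genes of the OBERON proteins OBE1 and OBE2, chromatin factors with a PHD finger. The group wrky-qm_15_hz carried wrky7-/-11-/-17-/-21-/-39-/- together with wrky15+/-, so that 1 copy of WRKY15 was mutated, and wrky-qm carried the same combination without the wrky15 mutation. These WRKY genes encode transcription factors of group IId. Col-0_2 and Col-0_1 were both wild type, and the labels tie neither set to a mutant. How many seedlings were pooled for a library, whether a mutant was 1 line, and how heterozygous seedlings were found are not stated by the labels. The series title concerns the repression of stress genes by such WRKY and PHD proteins.

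Jasmonate is perceived by the F-box protein COI1, which brings JAZ repressors to degradation and so frees the transcription factors that JAZ proteins hold. On the MYC branch the bHLH factor MYC2 and its relatives turn on genes of the wound and herbivore response, of which the vegetative storage protein genes VSP1 and VSP2 are the usual readout. On the ERF branch jasmonate acts with ethylene through EIN3 and EIL1 on the AP2/ERF factors ORA59 and ERF1, which turn on plant defensins of the PDF1 family, small secreted antifungal peptides used as the readout of the response to necrotrophic fungi. The branches are known to restrain each other, and salicylate is known to lower the ERF branch.

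Values are as the authors deposited them and are called normalised reads here from their form, since no unit is given. Libraries summed to between 44049333 and 49934976. In these sums all obe1-2 and wrky-qm_15_hz libraries lay above those of wrky-qm, which lay above all wild-type libraries. Log2 fold changes were taken after adding 1 to each value, which makes the changes of low genes look smaller than they were, and are given ± SE. A gene was called changed in a mutant where it differed from Col-0_2 and from Col-0_1 with the same sign (limma, adjusted p under 0.05), and its fold change is relative to the average of these sets. The SE of such a fold change covers only the spread of libraries within groups, not the difference between the wild-type sets. It therefore understates the uncertainty where these sets differ. The p-value is the larger of those against the single sets. All mutants were compared with the same 6 wild-type libraries. Of the mutated genes, OBE1 averaged 11.1 ± 4.66 in obe1-2 and 2546 ± 109 in Col-0_2 (SD, n = 3 each). OBE2 fell less, to 1811 ± 75.8 in obe1-2 beside 4279 ± 128 in Col-0_2. WRKY17 and WRKY39 fell in both WRKY mutants, and WRKY21 fell in wrky-qm but was not called in wrky-qm_15_hz. WRKY7, WRKY11 and WRKY15 were called higher than wild type in both WRKY mutants, of which wrky-qm carried no wrky15 mutation. The levels of these genes therefore do not check those labels. Summed green shoot markers, 3 genes of photosynthesis, ranged from 541750 to 581952 in obe1-2, 989182 to 1063130 in wrky-qm_15_hz, 1430140 to 1483302 in wrky-qm, 1414052 to 1445409 in Col-0_2 and 1337966 to 1493910 in Col-0_1. Summed root markers, also 3 genes, ranged from 1570.2 to 1748 in obe1-2, 826 to 891 in wrky-qm_15_hz, 1973 to 2034 in wrky-qm, 2930.0 to 3445 in Col-0_2 and 2876 to 3085 in Col-0_1. The low root sum of obe1-2 came mostly from PRP3, which averaged 20.4 there, 1352 in Col-0_2 and 1290 in Col-0_1. CASP1 fell by 0.29 ± 0.06 in obe1-2 (limma adjusted p = 0.0048), and CASP2 was not called. In wrky-qm_15_hz all 3 root markers were lower, and in wrky-qm 2 were. In whole seedlings, fewer cells of a type and less RNA per cell cannot be told apart. The part of tissue make-up in the results below was not tested.

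MYC2, the master regulator of the MYC branch, could not be followed, because it was listed at 0 in all 15 libraries. In the TAIR10.1 annotation 98.5% of its length lies under AT1G32630, a gene on the opposite strand, which was listed at 42.8 to 71.6 normalised reads over the 15 libraries. Of 670 protein-coding genes covered to at least 90% by genes of the opposite strand, 511 (76.3%) were likewise listed at 0 in all libraries, against 2361 of 20688 genes (11.4%) with no such cover. No source used here gives the strandedness of the libraries, so a listing at 0 says nothing on the level of MYC2. The other 9 genes overlap no gene on the opposite strand in that annotation, and all 9 entered the test.

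In obe1-2 both VSP genes and PDF1.2a fell while ORA59 and ERF1 rose. In wrky-qm_15_hz ORA59, ERF1 and PDF1.1 rose, and in wrky-qm VSP1 rose while ORA59 and 3 defensins fell. The calls of PDF1.2a in obe1-2 and of ORA59 in wrky-qm were lost under some other settings, given below. In obe1-2, 2 of the 9 genes were called higher and 3 lower, beside 29.2% and 32.5% of the 25085 genes tested. In wrky-qm_15_hz, 3 were higher and 0 lower, beside 26.5% and 27.4% of all genes. In wrky-qm, 1 was higher and 4 lower, beside 15.5% and 11.4% of all genes. With changes this widespread in the transcriptome, a share of called members is close to what genes in general showed in obe1-2, and the values of the single genes carry more. The median log2 fold change of the 9 genes was -1.56 in obe1-2, 1.59 in wrky-qm_15_hz and -1.58 in wrky-qm, beside medians over all genes of -0.08, -0.04 and 0.00. The median in wrky-qm_15_hz is the value of PDF1.3, which was not called there. It was -0.17 against Col-0_2 and 3.35 against Col-0_1, so that median does not show a general rise. Most of the 9 genes are closely related defensins.

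**Figure D1:**
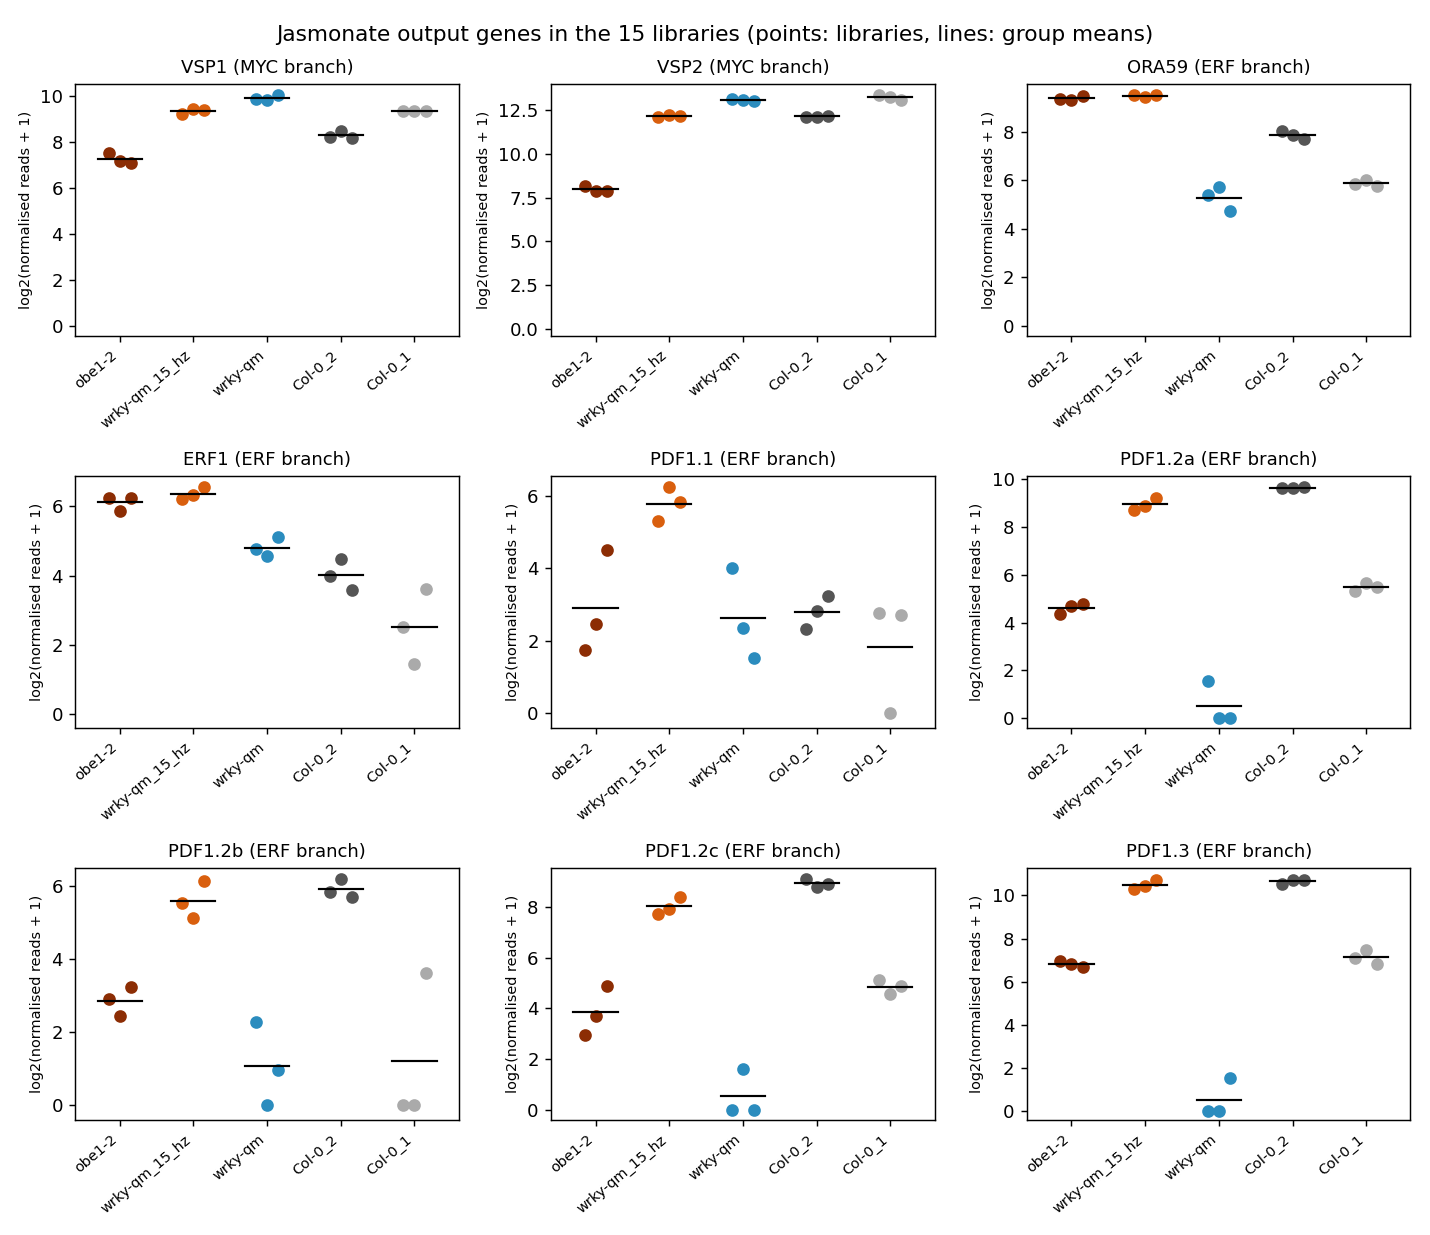
Normalised reads of the 9 tested genes in every library, on a log2(value + 1) axis, with groups along the x axis, a point for each library and a line at each group mean. ORA59 and ERF1 were highest in obe1-2 and wrky-qm_15_hz, VSP2 was lowest in obe1-2, and PDF1.2a, PDF1.2c and PDF1.3 were near 0 in wrky-qm and high in wrky-qm_15_hz and Col-0_2.

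ORA59 is the AP2/ERF factor on which jasmonate and ethylene signals meet. It stood at 655, 631.5 and 712 normalised reads in obe1-2, 728, 701 and 732 in wrky-qm_15_hz, 41.1, 52.0 and 25.9 in wrky-qm, 259, 234 and 209 in Col-0_2, and 57.0, 63.0 and 53.7 in Col-0_1. The libraries of obe1-2 and wrky-qm_15_hz overlapped at the top, and no other groups overlapped, with wrky-qm lowest. ORA59 rose by 2.51 ± 0.165 in obe1-2 (limma adjusted p = 4.55e-07) and by 2.62 ± 0.165 in wrky-qm_15_hz (limma adjusted p = 2.39e-07). It fell by 1.58 ± 0.165 in wrky-qm (limma adjusted p = 0.0248). That fall did not pass without wrky-qm replicate 3 (limma adjusted p = 0.185), without Col-0_1 replicate 2 (0.0849) or in a fit on the compared libraries alone (0.0967). Against the single sets, the log2 fold change of ORA59 in wrky-qm was -2.58 against Col-0_2 and -0.59 against Col-0_1.

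ERF1, another AP2/ERF factor and a direct target of EIN3, shared the rise of ORA59 in obe1-2 and wrky-qm_15_hz but not its fall in wrky-qm. It stood at 75.3, 57.0 and 75.0 normalised reads in obe1-2, 73.6, 78.9 and 93.3 in wrky-qm_15_hz, 26.05, 22.5 and 33.9 in wrky-qm, 14.98, 21.3 and 10.9 in Col-0_2, and 4.72, 1.715 and 11.2 in Col-0_1. The mutants all lay above all 6 wild-type libraries, obe1-2 overlapped wrky-qm_15_hz, and the wild-type sets overlapped each other. ERF1 rose by 2.85 ± 0.38 in obe1-2 (limma adjusted p = 0.000259) and by 3.10 ± 0.38 in wrky-qm_15_hz (limma adjusted p = 0.000101). In wrky-qm it had a log2 fold change of 1.54 ± 0.38 and did not pass (limma adjusted p = 0.233), because it passed against Col-0_1 (2.29, limma adjusted p = 0.000222) but not against Col-0_2 (0.79, limma adjusted p = 0.162).

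VSP1 and VSP2 encode vegetative storage proteins of the acid phosphatase family and are the classic output of the MYC branch, and both were lowest in obe1-2. VSP2 stood at 287, 239 and 231 normalised reads in obe1-2, 4425.5, 4761 and 4689 in wrky-qm_15_hz, 9041, 8572 and 8222 in wrky-qm, 4496, 4488 and 4712 in Col-0_2, and 10516, 9953 and 8794.5 in Col-0_1. The levels formed 3 tiers that did not overlap, with wrky-qm and Col-0_1 highest, wrky-qm_15_hz and Col-0_2 between, and obe1-2 far below. VSP2 fell by 4.72 ± 0.06 on the log2 scale in obe1-2, a 26.4-fold difference (limma adjusted p = 1.14e-21). It did not pass in wrky-qm_15_hz, with log2 fold changes of 0.02 against Col-0_2 and -1.07 against Col-0_1, but was called lower under quantile normalisation (-0.75, limma adjusted p = 0.012). Nor did it pass in wrky-qm, with 0.915 against Col-0_2 and -0.18 against Col-0_1.

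VSP1, the neighbouring and closely related gene, stood at 183, 142 and 132.5 normalised reads in obe1-2, 591, 674 and 666 in wrky-qm_15_hz, 937, 906 and 1035 in wrky-qm, 298, 354 and 286 in Col-0_2, and 645, 637 and 638.5 in Col-0_1. Only wrky-qm_15_hz and Col-0_1 overlapped, wrky-qm lay above all other groups and obe1-2 below them. VSP1 fell by 1.56 ± 0.10 in obe1-2 (limma adjusted p = 6.63e-08) and rose by 1.099 ± 0.10 in wrky-qm (limma adjusted p = 0.000458). In wrky-qm_15_hz it had log2 fold changes of 1.04 against Col-0_2 and 0.01 against Col-0_1 and did not pass (limma adjusted p = 1).

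The VSP genes are also known from flowers, and summed flower markers (AG, AP3 and PI) ranged from 245 to 294 normalised reads in obe1-2, 304 to 351 in wrky-qm_15_hz, 58.3 to 86.2 in wrky-qm, 57.4 to 114 in Col-0_2 and 32.2 to 71.8 in Col-0_1. The sum was higher in obe1-2 and wrky-qm_15_hz than in the other groups, though AG averaged 6.79 in obe1-2 against 21.0 in Col-0_2 and 10.3 in Col-0_1. None of the markers was at 0 in any group mean, and their part in the VSP levels was not tested. VSP1 and VSP2 share 89.5% of their coding bases in TAIR10.1, with a longest shared stretch of 54 bases against a read length of 150, and they lie next to each other on 1 strand. No source used here says how the authors counted reads that match both, so the split between them is uncertain.

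PDF1.2a is the defensin most used to read out the ERF branch, and in obe1-2 it went the other way from ORA59 and ERF1. It stood at 19.55, 25.0 and 26.4 normalised reads in obe1-2, 422, 472 and 601 in wrky-qm_15_hz, 1.905, 0.00335 and 0 in wrky-qm, 803, 792 and 810.3 in Col-0_2, and 38.8, 49.1 and 43.8 in Col-0_1. No groups overlapped, and wrky-qm was lowest, with obe1-2 next. PDF1.2a fell in wrky-qm, with a log2 fold change of -7.05 ± 0.30 (limma adjusted p = 1.46e-10). It fell by 2.95 ± 0.30 in obe1-2 (limma adjusted p = 0.0322), where ORA59 and ERF1 rose, with log2 fold changes of -5.04 against Col-0_2 and only -0.87 against Col-0_1. That call was lost with a pseudocount of 0.5 (limma adjusted p = 0.0888), under quantile normalisation (limma adjusted p = 1) and without obe1-2 replicate 1 (0.104), Col-0_1 replicate 2 (0.091) or Col-0_1 replicate 3 (0.0629).

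PDF1.2c, the neighbour of PDF1.2a, stood at 6.74, 12.1 and 28.2 normalised reads in obe1-2, 212, 242 and 338 in wrky-qm_15_hz, 0, 2.03 and 0 in wrky-qm, 541, 443 and 485 in Col-0_2, and 33.4, 22.9 and 28.3 in Col-0_1. The order of the groups was that of PDF1.2a, except that obe1-2 overlapped Col-0_1. PDF1.2c fell in wrky-qm, with a log2 fold change of -6.36 ± 0.39 (limma adjusted p = 1.29e-07). In obe1-2 the log2 fold change of -3.05 ± 0.39 just missed the threshold (limma adjusted p = 0.0619). It passed without obe1-2 replicate 3, the highest library of that group (limma adjusted p = 0.00627), with a pseudocount of 5 (0.0287), with a minimum group mean of 10 (0.0481) and in a fit on the compared libraries alone (0.0314).

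PDF1.3 had the widest range of the 9 genes on the log2(value + 1) scale. It stood at 124, 113 and 102 normalised reads in obe1-2, 1248, 1385 and 1704 in wrky-qm_15_hz, 0, 0.00335 and 1.95 in wrky-qm, 1458, 1701 and 1688 in Col-0_2, and 136, 176 and 113 in Col-0_1. The wrky-qm libraries lay below all others, obe1-2 overlapped Col-0_1, and wrky-qm_15_hz overlapped Col-0_2. PDF1.3 fell in wrky-qm, with a log2 fold change of -8.37 ± 0.26 (limma adjusted p = 1.55e-13). With wrky-qm so near 0, the size depends on the pseudocount, and it was -9.12 with 0.5 and -6.44 with 5. The same holds for the other defensins and for their fold changes over wrky-qm. In obe1-2 the log2 fold change was -2.07 ± 0.26 and did not pass (limma adjusted p = 0.426), being -3.83 against Col-0_2 and -0.31 against Col-0_1.

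PDF1.2b, the neighbour of PDF1.3, was called in none of the mutants. It stood at 6.48, 4.45 and 8.415 normalised reads in obe1-2, 44.6, 33.9 and 68.3 in wrky-qm_15_hz, 3.81, 0.00835 and 0.9525 in wrky-qm, 55.9, 71.1 and 50.65 in Col-0_2, and 0, 0 and 11.3 in Col-0_1. The groups wrky-qm_15_hz and Col-0_2 overlapped well above the rest, and Col-0_1 spanned both wrky-qm and obe1-2. Its log2 fold change was -0.69 ± 0.65 in obe1-2, 2.03 ± 0.65 in wrky-qm_15_hz and -2.47 ± 0.65 in wrky-qm (limma adjusted p = 1 in each). The sign in obe1-2 turned under quantile normalisation, to 0.43.

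PDF1.1, a defensin known from seeds and often absent from leaves, was set apart in wrky-qm_15_hz. It stood at 2.36, 4.55 and 21.9 normalised reads in obe1-2, 38.3, 74.8 and 55.8 in wrky-qm_15_hz, 15.2, 4.11 and 1.86 in wrky-qm, 3.99, 6.105 and 8.40 in Col-0_2, and 5.75, 0 and 5.55 in Col-0_1. The wrky-qm_15_hz libraries lay above all others, and the other groups overlapped. PDF1.1 rose by 3.48 ± 0.67 in wrky-qm_15_hz (limma adjusted p = 0.00221) and was called in neither other mutant (limma adjusted p = 1 in each). Seed storage genes, 4 markers known from developing seeds, summed to 28144 to 30081 normalised reads in wrky-qm_15_hz, 8803 to 9217 in wrky-qm, 25.3 to 57.8 in obe1-2, 349 to 462.5 in Col-0_2 and 13.5 to 23.3 in Col-0_1. In mean level, 1 of the 4 was at 0 in obe1-2, 1 in Col-0_2 and 3 in Col-0_1. The sum in wrky-qm came almost wholly from CRA1 (mean 4783) and CRC (4189), which averaged 9921 and 10916 in wrky-qm_15_hz. CRU2 averaged 16.9 in wrky-qm and 3844 in wrky-qm_15_hz, and SESA3 averaged 19.0 and 4634. PDF1.1 overlapped wild type in wrky-qm, and the part of these seed transcripts in its level was not tested.

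The 5 defensin genes are close copies, each with a coding length of 243 bases in TAIR10.1, and pairs of them share 87.2% to 94.7% of those bases. The longest shared stretch was 72 bases, between PDF1.2b and PDF1.3, so a 150-base read carries differences, but the counting of ambiguous reads was not given in the sources used here. The neighbours PDF1.2a and PDF1.2c, and PDF1.2b and PDF1.3, have no gene between them. PDF1.2a and PDF1.2c had the same order of group means, and so had PDF1.3.

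The wild-type set decided several calls. Against Col-0_2 alone, 2 of the 9 genes were higher and 6 lower in obe1-2 (68.3% of all genes called in either direction), 4 higher and 0 lower in wrky-qm_15_hz (61.2%), and 2 higher and 5 lower in wrky-qm (42.1%). Against Col-0_1 alone, 2 were higher and 3 lower in obe1-2 (70.9%), 7 higher and 1 lower in wrky-qm_15_hz (65.5%), and 2 higher and 4 lower in wrky-qm (40.4%). The defensins of wrky-qm_15_hz show the dependence most clearly. PDF1.2a had log2 fold changes of -0.70 against Col-0_2 (limma adjusted p = 0.0828) and 3.47 against Col-0_1 (1.25e-08), and PDF1.3 had -0.17 (0.655) and 3.35 (2.87e-09). PDF1.2c had -0.91 against Col-0_2 (limma adjusted p = 0.0903) and 3.17 against Col-0_1 (2.93e-06), and PDF1.2b had -0.31 (0.742) and 4.38 (2.61e-05). These defensins in wrky-qm_15_hz were thus not called against Col-0_2 and were higher than in Col-0_1. In wrky-qm the falls were called against each set, with log2 fold changes against Col-0_1, the nearer set, of -4.97 for PDF1.2a, -4.32 for PDF1.2c and -6.61 for PDF1.3 (largest limma adjusted p = 9.14e-08).

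**Figure D2:**
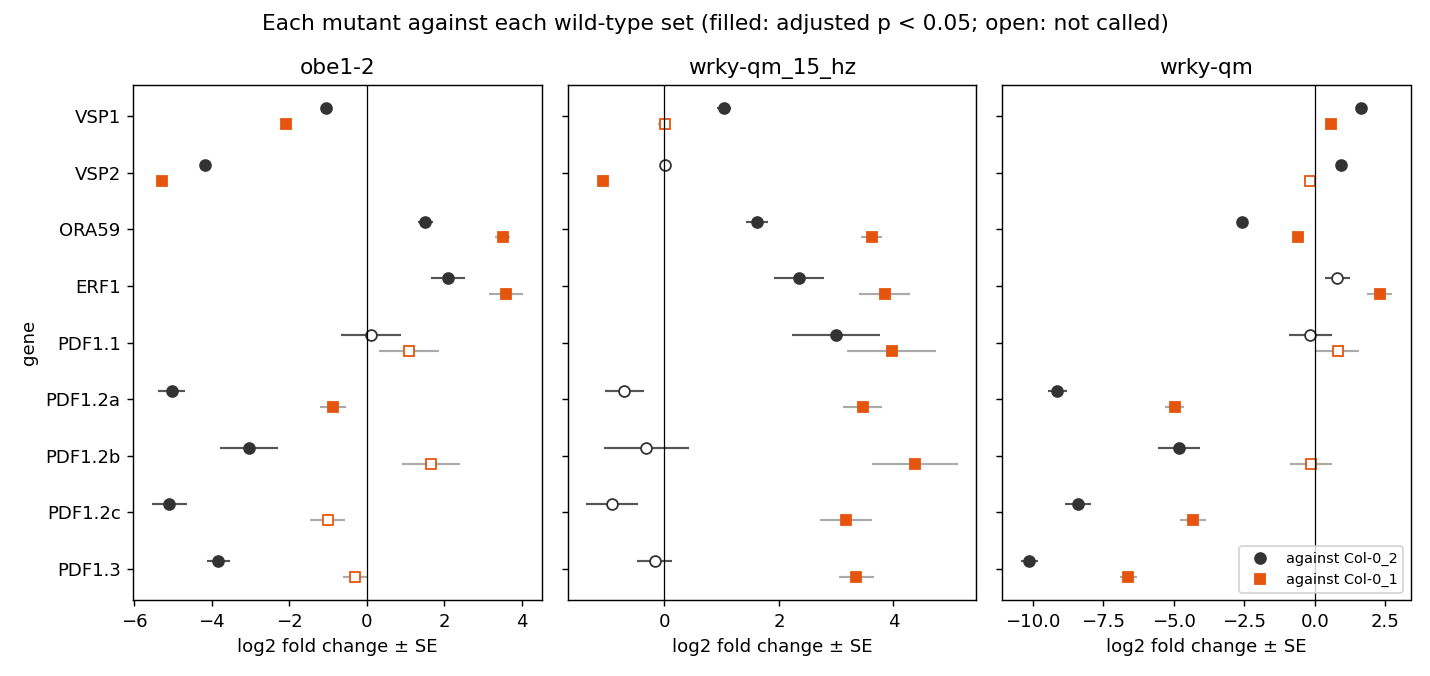
Log2 fold change ± SE of each of the 9 genes (rows) in each mutant (panels) against Col-0_2 (dark circles) and against Col-0_1 (orange squares), filled where limma called the gene. ORA59 and ERF1 lie on the same side of 0 against both sets in obe1-2 and wrky-qm_15_hz, while the PDF1.2 genes and PDF1.3 in wrky-qm_15_hz lie above 0 against Col-0_1 alone.

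The wild-type sets, which share a genotype, differed in 8 of the 9 genes. In Col-0_2, 6 genes were higher and 2 lower than in Col-0_1, beside 13.7% and 9.52% of all genes. All of the ERF branch but PDF1.1 was higher in Col-0_2, and both VSP genes were lower there. PDF1.2a differed by 4.17 ± 0.34 (limma adjusted p = 7.98e-09), PDF1.2b by 4.69 ± 0.75 (6.16e-05), PDF1.2c by 4.08 ± 0.46 (6.57e-07) and PDF1.3 by 3.52 ± 0.30 on the log2 scale (1.46e-08). The factor genes differed by less, ORA59 by 1.99 ± 0.19 (limma adjusted p = 7.7e-08) and ERF1 by 1.497 ± 0.44 (0.0161). The difference in ERF1 did not pass without Col-0_2 replicate 2 (limma adjusted p = 0.0819), without Col-0_1 replicate 2 (0.114) or in a fit on both sets alone (0.0631). VSP1 had a log2 fold change of -1.04 ± 0.12 (limma adjusted p = 6.37e-07) and VSP2 one of -1.09 ± 0.07 (2.01e-10) in Col-0_2. PDF1.1 did not pass (0.97 ± 0.77, limma adjusted p = 0.428). The touch genes TCH2, TCH3 and TCH4, which respond to handling, were also higher in Col-0_2, with a sum of 3941 to 4211 against 1408 to 1487 in Col-0_1, and their part in these differences was not tested.

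The WRKY mutants differed from each other in all 9 genes when their libraries were compared directly. In wrky-qm_15_hz, 7 genes were higher and 2 lower than in wrky-qm, beside 29.5% and 34.9% of all genes. ORA59 was 18.4-fold higher (log2 fold change 4.20 ± 0.19, limma adjusted p = 3.74e-14), and ERF1 had a log2 fold change of 1.55 ± 0.44 (0.00408). The defensins near 0 in wrky-qm gave the largest values. PDF1.3 was higher by 9.96 ± 0.30 (limma adjusted p = 3.57e-17), PDF1.2a by 8.43 ± 0.34 (5.3e-15), PDF1.2c by 7.49 ± 0.46 (5.33e-12) and PDF1.2b by 4.50 ± 0.75 (1.98e-05). PDF1.1 was higher by 3.16 ± 0.77 (limma adjusted p = 0.00118). VSP1 and VSP2 were lower in wrky-qm_15_hz, with log2 fold changes of -0.58 ± 0.12 (limma adjusted p = 0.000179) and -0.90 ± 0.07 (3.74e-10).

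The WRKY mutants also differed in how their zeros were written. In obe1-2, wrky-qm_15_hz and Col-0_2 all values counted as 0 were exact zeros. In wrky-qm (7949 per library) and Col-0_1 (8177 per library) most were tiny values above 0. The groups with exact zeros were not alike in other ways. Every obe1-2 library had 9106 zeros and every wrky-qm_15_hz library 8431, while those of Col-0_2 had 9230, 8037 and 9219. No label names a batch, and whether any of the groups were grown or processed apart cannot be told from the labels. Taking wrky-qm_15_hz relative to Col-0_2 and wrky-qm relative to Col-0_1, ORA59 still differed by 2.21 (limma adjusted p = 6.64e-07), PDF1.3 by 6.44 (5.51e-11), PDF1.2a by 4.27 (2.28e-07) and PDF1.2c by 3.41 (0.000148). ERF1 (0.06, limma adjusted p = 0.951), PDF1.1 (2.19, 0.103), PDF1.2b (-0.19, 0.903) and VSP2 (0.20, 0.111) no longer passed, and VSP1 turned to 0.46 (0.023). This comparison was added after the data were seen, and it matches groups only by whether their zeros were exact.

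Between obe1-2 and wrky-qm_15_hz the outputs of both branches differed, while the factor genes did not pass. In obe1-2, 0 of the 9 genes were higher and 7 lower than in wrky-qm_15_hz, beside 20.3% and 26.1% of all genes. ORA59 (log2 fold change -0.11 ± 0.19, limma adjusted p = 0.674) and ERF1 (-0.25 ± 0.44, 0.697) did not pass. PDF1.2a had a log2 fold change of -4.34 ± 0.34 (limma adjusted p = 1.09e-09), PDF1.2c one of -4.18 ± 0.46 (1.47e-07), PDF1.3 one of -3.66 ± 0.30 (2.17e-09), PDF1.1 one of -2.88 ± 0.77 (0.004) and PDF1.2b one of -2.72 ± 0.75 (0.00473). On the MYC branch VSP2 had a log2 fold change of -4.20 ± 0.07 (limma adjusted p = 2.42e-20) and VSP1 one of -2.08 ± 0.12 (3.71e-12). All zeros of both groups were exact.

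In obe1-2 set against wrky-qm, 6 genes were higher and 2 lower, beside 31.1% and 38.9% of all genes. VSP2 had a log2 fold change of -5.09 ± 0.07 (limma adjusted p = 4.77e-23) and VSP1 one of -2.66 ± 0.12 (9.8e-15). ORA59 was higher by 4.09 ± 0.19 (limma adjusted p = 3.48e-14) and ERF1 by 1.31 ± 0.44 (0.0119). PDF1.3 was higher by 6.31 ± 0.30 (limma adjusted p = 5.13e-14), PDF1.2a by 4.10 ± 0.34 (6.48e-10), PDF1.2c by 3.31 ± 0.46 (1.31e-06) and PDF1.2b by 1.78 ± 0.75 (0.039), while PDF1.1 did not pass (0.28 ± 0.77, 0.765). VSP1 and VSP2 were thus lower, and 6 of the 7 ERF branch genes higher, in obe1-2. Under quantile normalisation PDF1.1 passed as well (1.76, limma adjusted p = 0.0412). Both mutants were also taken relative to the wild-type set alike in whether zeros were exact. So taken, VSP1 (-1.62), VSP2 (-4.00), ORA59 (2.097) and PDF1.3 (2.78) kept their direction and passed (largest limma adjusted p = 8.51e-06). In that comparison PDF1.2b turned to -2.91 (limma adjusted p = 0.022), and ERF1 (-0.19, 0.817), PDF1.1 (-0.69, 0.612), PDF1.2a (-0.07, 0.917) and PDF1.2c (-0.77, 0.323) did not pass. The median over all genes was -0.12 in the direct comparison as deposited and 0.03 after quantile normalisation.

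**Figure D3:**
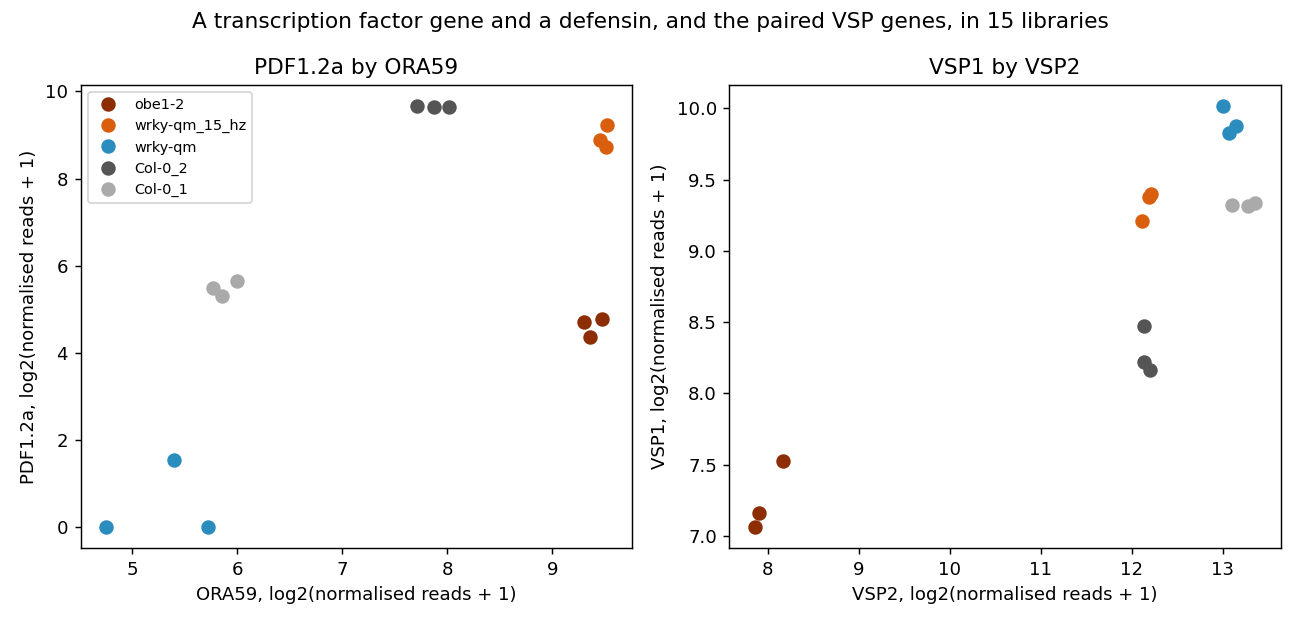
PDF1.2a plotted against ORA59 (left) and VSP1 against VSP2 (right) in the 15 libraries, both axes in log2(normalised reads + 1), with a colour for each group. On the left, obe1-2 pairs a high ORA59 with a low PDF1.2a, at 19.55 to 26.4 normalised reads, and wrky-qm_15_hz pairs a high ORA59 with a high PDF1.2a. On the right, obe1-2 stands apart at the low end of both genes.

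Other genes upstream of the branches were taken from lists of known pathway members. JAZ genes, which encode the repressors and are themselves induced by jasmonate, were listed with COI1, NINJA and TPL, and 13 of these 16 genes were higher and 2 lower in obe1-2, 10 higher and 1 lower in wrky-qm_15_hz, and 12 higher and 0 lower in wrky-qm. The medians of this list were 0.57, 0.38 and 2.00, to be read, as for the lists that follow, beside the shares and medians of all genes above. JAZ1 averaged 3943 ± 65.4 normalised reads in obe1-2, 3389 ± 153 in wrky-qm_15_hz, 6751 ± 372 in wrky-qm, 938 ± 27.9 in Col-0_2 and 499.7 ± 82.6 in Col-0_1 (SD, n = 3 each). JAZ9 rose by 3.49 ± 0.05 in wrky-qm (limma adjusted p = 2.42e-19), by 1.06 ± 0.05 in wrky-qm_15_hz (3.24e-10) and by 0.78 ± 0.05 in obe1-2 (1.44e-07). Of 12 genes of jasmonate synthesis and breakdown, 10 were higher in obe1-2, 10 in wrky-qm_15_hz and 11 in wrky-qm, with 0 lower in each and medians of 0.76, 0.70 and 1.65. LOX4, a lipoxygenase gene of the first step, rose by 2.89 ± 0.11 in obe1-2, 2.60 ± 0.11 in wrky-qm_15_hz and 4.45 ± 0.11 in wrky-qm (largest limma adjusted p = 8.16e-13).

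Other genes of the MYC branch did not all follow the VSP genes. Of 8 factor genes listed, 4 were higher and 2 lower in obe1-2, 3 and 1 in wrky-qm_15_hz, and 4 and 1 in wrky-qm, with medians of 0.33, 0.21 and 0.29. NAC019, a NAC factor gene downstream of MYC2, averaged 624 ± 74.7 normalised reads in obe1-2, 531 ± 23.3 in wrky-qm_15_hz, 2146 ± 105 in wrky-qm, 94.5 ± 7.47 in Col-0_2 and 62.6 ± 15.8 in Col-0_1. MYC5, a relative of MYC2 known from stamens, fell by 6.84 ± 0.51 in obe1-2 (limma adjusted p = 2.97e-09) and by 4.51 ± 0.51 in wrky-qm_15_hz (3.65e-06). Of 6 further MYC branch outputs, 4 were higher and 1 lower in obe1-2, 4 and 2 in wrky-qm_15_hz, and 2 and 2 in wrky-qm, with medians of 2.28, 1.29 and -0.17.

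LOX2, a chloroplast lipoxygenase gene induced by wounding, rose in obe1-2, where both VSP genes fell. It averaged 204327 ± 3201 normalised reads in obe1-2, 108372 ± 6995 in wrky-qm_15_hz, 27815 ± 341 in wrky-qm, 34253.5 ± 807 in Col-0_2 and 37570 ± 516.5 in Col-0_1. Its log2 fold change was 2.51 ± 0.04 in obe1-2 (limma adjusted p = 4.82e-21), 1.59 ± 0.04 in wrky-qm_15_hz (2.9e-17) and -0.37 ± 0.04 in wrky-qm (1.71e-05). CORI3, a gene induced by coronatine and jasmonate, had log2 fold changes of 2.05 ± 0.04 in obe1-2, 0.99 ± 0.04 in wrky-qm_15_hz and -0.70 ± 0.04 in wrky-qm (largest limma adjusted p = 5.15e-07). NATA1, an acetyltransferase gene of the jasmonate response, rose by 3.63 ± 0.13 in obe1-2 and by 3.85 ± 0.13 in wrky-qm_15_hz (larger limma adjusted p = 7.8e-15).

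**Figure D4:**
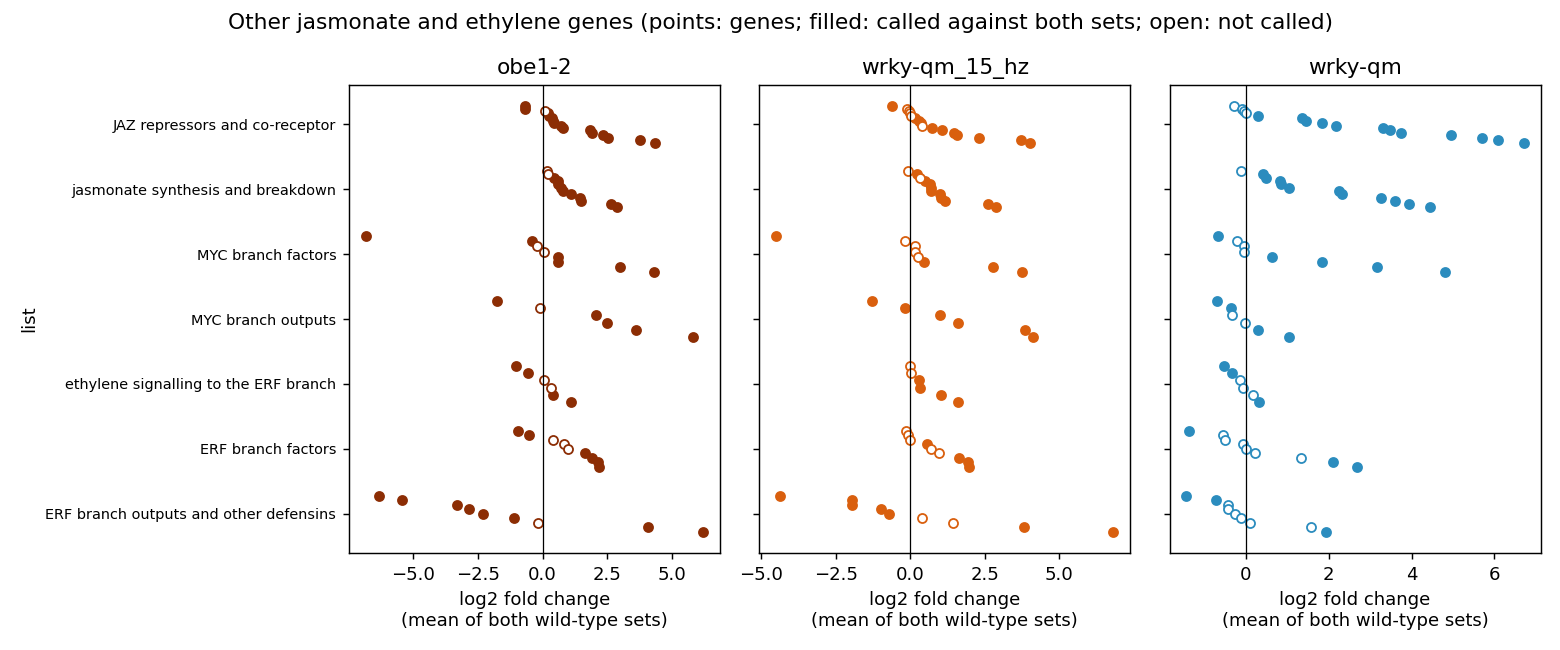
Log2 fold change relative to the average of Col-0_2 and Col-0_1 (x axis) for the genes in 7 lists of the jasmonate and ethylene pathways (rows), with a panel for each mutant and a point for each gene, filled where called against both sets. In wrky-qm the genes of the repressors and of jasmonate synthesis lie mostly to the right. The genes of both output lists lie on both sides of 0 in all 3 mutants, where the ERF list also holds defensins of other subfamilies.

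On the ERF branch, of 6 listed ethylene signalling genes from CTR1 to EIN3, 2 were higher and 2 lower in obe1-2, 4 and 0 in wrky-qm_15_hz, and 1 and 2 in wrky-qm, with medians of 0.19, 0.31 and -0.10. CTR1, a kinase gene that restrains the ethylene response, rose by 1.099 ± 0.03 in obe1-2 and by 1.02 ± 0.03 in wrky-qm_15_hz (larger limma adjusted p = 3.06e-13). EBF2, which encodes an F-box protein that removes EIN3, rose by 1.60 ± 0.07 in wrky-qm_15_hz (limma adjusted p = 1.01e-12) and fell by 0.52 ± 0.07 in wrky-qm (0.000683).

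Of 10 further ERF factor genes, 9 were tested, of which 4 were higher and 2 lower in obe1-2, 4 and 0 in wrky-qm_15_hz, and 2 and 1 in wrky-qm, with medians of 0.99, 0.71 and 0.00. ERF2, an activator of the branch, rose by 2.19 ± 0.09 in obe1-2 and 1.63 ± 0.09 in wrky-qm_15_hz (larger limma adjusted p = 1.39e-07), and ERF104 rose by 2.14 ± 0.07 and 1.93 ± 0.07 (larger limma adjusted p = 5.08e-08). ERF4, which encodes a repressor of PDF1.2, averaged 1176 ± 109.8 normalised reads in obe1-2, 2510 ± 118 in wrky-qm_15_hz, 10931 ± 363 in wrky-qm, 2214 ± 37.6 in Col-0_2 and 1306 ± 67.8 in Col-0_1. It rose by 2.68 ± 0.05 in wrky-qm (limma adjusted p = 1.14e-17) and by 0.56 ± 0.05 in wrky-qm_15_hz (0.0134). In obe1-2 its log2 fold change was -0.535 ± 0.05 (limma adjusted p = 0.0284). In mean level ERF4 was lowest in obe1-2 and higher in Col-0_2 than in Col-0_1. Its part in the levels of PDF1.2a was not tested. ERF15, an activator in the abscisic acid and defence responses, fell by 1.37 ± 0.12 in wrky-qm (limma adjusted p = 3.91e-05).

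Further outputs and defensins of other subfamilies went both ways. Of 9 genes, 2 were higher and 6 lower in obe1-2, 2 and 5 in wrky-qm_15_hz, and 1 and 2 in wrky-qm, with medians of -2.28, -0.73 and -0.26. PR4, a chitin-binding protein gene induced by ethylene and jasmonate, rose by 4.07 ± 0.06 in obe1-2 and by 3.82 ± 0.06 in wrky-qm_15_hz (larger limma adjusted p = 1.18e-19). PR4 therefore rose in the mutants in which ORA59 and ERF1 rose. PDF1.2a was called lower in obe1-2, a call that several alternatives lost, and was not called in wrky-qm_15_hz. PDF1.4, another PDF1 gene, averaged 621 ± 54.5 normalised reads in wrky-qm_15_hz, 5.85 ± 1.74 in Col-0_2 and 6.22 ± 6.65 in Col-0_1, and rose by 6.82 ± 0.52 (limma adjusted p = 5.44e-09). It averaged 406 ± 39.8 in obe1-2 and rose there by 6.21 ± 0.52 (limma adjusted p = 1.56e-08), where PDF1.2a was not called higher. PDF2.2, a defensin gene of the PDF2 subfamily, fell by 2.84 ± 0.05 in obe1-2 and by 0.98 ± 0.05 in wrky-qm_15_hz (larger limma adjusted p = 2.66e-10). PR3, a basic chitinase gene, fell by 1.44 ± 0.05 in wrky-qm (limma adjusted p = 4.35e-13). In obe1-2 its log2 fold change was -1.12 ± 0.05 (limma adjusted p = 1.95e-11).

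Among 8 genes through which salicylate is known to act on the ERF branch, 5 were higher and 0 lower in obe1-2, 5 and 0 in wrky-qm_15_hz, and 2 and 1 in wrky-qm, with medians of 0.64, 0.40 and 0.11. GRX480, a glutaredoxin gene whose product blocks PDF1.2 induction with TGA factors, averaged 41.6 ± 7.16 normalised reads in obe1-2, 30.7 ± 6.47 in wrky-qm_15_hz, 82.8 ± 10.6 in wrky-qm, 4.91 ± 3.07 in Col-0_2 and 3.10 ± 2.84 in Col-0_1. It rose by 4.34 ± 0.48 in wrky-qm (limma adjusted p = 7.63e-06), by 3.36 ± 0.48 in obe1-2 (7.41e-05) and by 2.93 ± 0.48 in wrky-qm_15_hz (0.000513). Of 5 cofactor genes of Mediator and histone deacetylases, 3 were higher in obe1-2, 3 in wrky-qm_15_hz and 0 in wrky-qm, with 0 lower in each and medians of 0.21, 0.15 and 0.11. MED16, a Mediator subunit gene needed for PDF1.2 expression, rose by 1.26 ± 0.06 in obe1-2 and by 0.999 ± 0.06 in wrky-qm_15_hz (larger limma adjusted p = 9.13e-13). The touch genes were higher too, 2 of 3 in obe1-2 and 3 of 3 in each WRKY mutant, with sums of 11564 to 12133 in obe1-2, 17017 to 19394 in wrky-qm_15_hz and 10354 to 11069 in wrky-qm. Their part in the levels of the jasmonate genes was not tested.

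The genes whose pattern over the 15 libraries was most like that of 3 of the genes were found by Pearson's r of log2(value + 1), searched among genes outside the 10 studied here. The libraries form 5 groups of 3, so r here describes likeness of group levels. For VSP2 these were PPCK1, a kinase gene of carbon metabolism (r = 0.993), AT1G52060 (0.989), the chalcone synthase gene TT4 (0.986) and AT3G13000 (0.985). TT4 averaged 354 normalised reads in obe1-2, 2195.5 in wrky-qm_15_hz, 4313 in wrky-qm, 2833 in Col-0_2 and 6088 in Col-0_1. For ORA59 they were AT4G23680, PME44, AT5G07580 and AT5G60250, each with r = 0.990. AT4G23680 averaged 16632 normalised reads in obe1-2, 17205 in wrky-qm_15_hz, 1959 in wrky-qm, 8734 in Col-0_2 and 2700.3 in Col-0_1. For PDF1.2a they were IRT3, AT4G29310, FLA2 and ACT2, with r = 0.974, 0.969, 0.959 and 0.958, beside 0.976 for PDF1.2c and 0.969 for PDF1.3, which were left out of the search. The range of these genes was far smaller than that of PDF1.2a, with IRT3, a metal transporter gene, averaging 572 in obe1-2, 919 in wrky-qm_15_hz, 384 in wrky-qm, 979.6 in Col-0_2 and 716.5 in Col-0_1.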

How the data were processed

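The authors deposited 1 table of 32548 genes in 15 libraries, whose values are treated as a signal, since their unit is given nowhere. They had the form of normalised read counts, not raw counts, so a count test could not be used. Per the submitters' processing notes, bcl2fastq, HISAT2 and edgeR were used with TAIR10; their settings, the strandedness and the annotation are not given in the sources used here. Names, overlaps and shared coding bases came from TAIR10.1, to which all 32548 loci matched. Its coordinates and sequences were used for the overlaps and shared bases but are not printed here.

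Values under 1e-06 were set to 0. The 25085 genes whose mean reached 1 in any group were kept, and 6167 were listed at 0 in every library. A limma-trend model (limma 3.58.1, R 4.3.3) was fitted to log2(value + 1) of the 15 libraries in 5 groups, with Benjamini-Hochberg adjustment over all genes tested and a threshold of 0.05. For a mutant against wild type the larger p of both sets was kept, or 1 where the directions differed. The fit was tested on simulated data. Median replicate coefficients of variation were 3.63% to 4.76% in genes of mean 1000 or more. No label states that replicates were grown apart. A p-value here therefore rests only on the spread of libraries within groups, which is pooled over the 5 groups and may be technical.

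All 10 genes are named. From lists of other pathway genes, up to 3 called genes of smallest p per mutant were open to naming, and the likeness search took the 4 genes of highest r for VSP2, ORA59 and PDF1.2a. The genes printed from these lists, and TT4, AT4G23680 and IRT3, were picked among them after their values were seen. The genes, lists and tests were chosen with earlier results of these data known. Alternatives were other pseudocounts, filters, scalings, wild-type sets, fits on fewer libraries, the replicate block and each replicate left out.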

Additional observations from a re-analysis of the deposited data

Results flagged for a closer look

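PDF1.2a and PDF1.2c in wrky-qm_15_hz lay on opposite sides of the wild-type sets, with every library of wrky-qm_15_hz below all of Col-0_2 and above all of Col-0_1. The log2 fold changes of PDF1.2a were -0.70 against Col-0_2 and 3.47 against Col-0_1, and those of PDF1.2c were -0.91 and 3.17. The difference between these effects is the difference between the wild-type sets themselves, which limma called in both genes (4.17 ± 0.34 for PDF1.2a, adjusted p = 7.98e-09, and 4.08 ± 0.46 for PDF1.2c, adjusted p = 6.57e-07). Groups of 3 libraries were too small for a test of single libraries that stand apart.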

How the results depend on the processing

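Of 1125 log2 fold changes of single genes recomputed under the alternatives, 1054 kept their direction and their side of the threshold, 19 lost a call, 29 gained one and 23 changed sign. For obe1-2 against both sets, PDF1.2b turned to 0.43 under quantile normalisation and to 1.65 against Col-0_1 alone, and 8 genes were called against Col-0_2 alone, where 5 had been. For wrky-qm_15_hz, the values against Col-0_2 alone were 0.018 for VSP2, -0.70 for PDF1.2a, -0.31 for PDF1.2b, -0.91 for PDF1.2c and -0.17 for PDF1.3, and 8 genes were called against Col-0_1 alone and 9 with the sets averaged, where 3 had been. For wrky-qm, VSP2 was -0.18 against Col-0_1 alone and PDF1.1 -0.17 against Col-0_2 alone. Averaging the sets called 8 of the 9 genes in wrky-qm, where 5 had been, and genes changed there numbered 10126 against Col-0_1 alone, 10549 against Col-0_2 alone and 11058 with the sets averaged, where both sets together gave 6743. Without each replicate in turn, PDF1.1 ranged from -0.20 to 1.19 in obe1-2 against wild type, from -0.37 to 0.88 in wrky-qm against wild type and from -0.52 to 0.98 in obe1-2 against wrky-qm. Under quantile normalisation ERF1 in obe1-2 against wrky-qm_15_hz was 0.23, and VSP2 in wrky-qm_15_hz (-0.75, limma adjusted p = 0.012) and PDF1.1 in obe1-2 against wrky-qm (1.76, 0.0412) gained calls. Mutants were also taken relative to the wild-type set alike in whether zeros were exact. For wrky-qm_15_hz against wrky-qm, 5 of the 9 genes were then called where 9 had been, beside 12597 of all 25085 genes. VSP1 was at 0.46, VSP2 at 0.20 and PDF1.2b at -0.19. For obe1-2 against wrky-qm, 5 of the 9 were called where 8 had been, beside 14922 of all 25085 genes. There ERF1 was at -0.19, PDF1.1 at -0.69, PDF1.2a at -0.068, PDF1.2b at -2.91 and PDF1.2c at -0.77. The causes were not tested.

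PDF1.2b in obe1-2 against wrky-qm lost its call with a pseudocount of 5 (limma adjusted p = 0.0605), without a variance trend (0.0849) and without obe1-2 replicate 1 (0.0791) or 3 (0.11) or wrky-qm replicate 2 (0.184) or 3 (0.086). Replicate numbers did not pair the libraries, since 0 of 30 same-number pairs had deviations correlated above 0.1 (range -0.115 to 0.082 over 17492 genes). With a replicate block, the genes called in obe1-2 against both sets stayed at 5 of 9, no call of the 9 genes changed in any comparison, and those over the transcriptome numbered 15444 against 15480 without the block. With 3 libraries a group, low genes such as PDF1.1, PDF1.2b and ERF1 are the least certain, and values near 0 make fold changes depend on the pseudocount.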
